A study of Mus musculus with 2 samples.

Results

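The insulin-like growth factor (IGF) system genes examined here were Igf1, Igf1r, Insr, Igfbp2, Igfbp3, Igfbp4, Igfbp5, Igfbp6 and Igfbp7. They were taken by symbol from the GENCODE mouse annotation, where all 9 were found among 21951 protein-coding genes. IGF1 is a secreted growth factor that signals through IGF1R, a receptor tyrosine kinase. INSR, the insulin receptor, is its closest relative and can pair with it in hybrid receptors. The IGF binding proteins hold IGFs outside the cell, where they lengthen their lifetime, carry them and limit their access to receptors. In the lung, IGF1 made by mesenchymal cells takes part in alveolar growth after birth.

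Accessible chromatin was mapped by DNase-seq, in which DNase I cuts open DNA in nuclei more readily than packed DNA. Both libraries came from lung tissue of male B6CASTF1/J mice, the F1 hybrids of C57BL/6J and CAST/EiJ, at an age of 14 days, with no treatment named. Replicate 1 is labelled as male with no pool named and replicate 2 as a pool of 3 males. They share a donor record, so separate animals were not established, and with 1 group no contrast between conditions could be made. Replicate 1 held 94786 peaks (accessible sites) and 326313 footprints, and replicate 2 held 77403 peaks and 252174 footprints; a footprint is a short stretch within open DNA that was spared from cleavage. Read depth is unknown. Promoter peaks of epithelial, endothelial and mesenchymal marker genes were found for 5 of 5, 4 of 4 and 4 of 4 genes in both libraries, against 1 of 3 macrophage, 0 of 3 liver and 0 of 2 heart marker genes. Over all protein-coding genes the share was 63.5%, so marker lists this short say little about the make-up of the tissue. In bulk tissue, fewer cells with an open site and less opening per cell cannot be told apart.

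A peak within 1 kb of any annotated transcript 5′ end of a gene was counted as a promoter peak, and every remaining peak in the gene model or up to 50 kb from it as an other peak. All 9 IGF system genes had a promoter peak in replicate 1 and 7 did in replicate 2, against 66.6% and 64.1% of all protein-coding genes. In both libraries together 7 of 9 had one, against 63.5% of all genes. Igf1 and Igfbp2 were the genes without a promoter peak in replicate 2. Each peak carries a score given by the authors, whose scaling is not stated, so scores were turned into percentiles among all peaks of the same library. The highest promoter peak of the IGF system genes had a median percentile of 81.5 in replicate 1 (9 genes) and 80.7 in replicate 2 (7 genes), against 89.9 and 89.7 for all genes with a promoter peak. Igf1r and Insr alone among the 9 genes lay above that median.

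**Figure D1:**
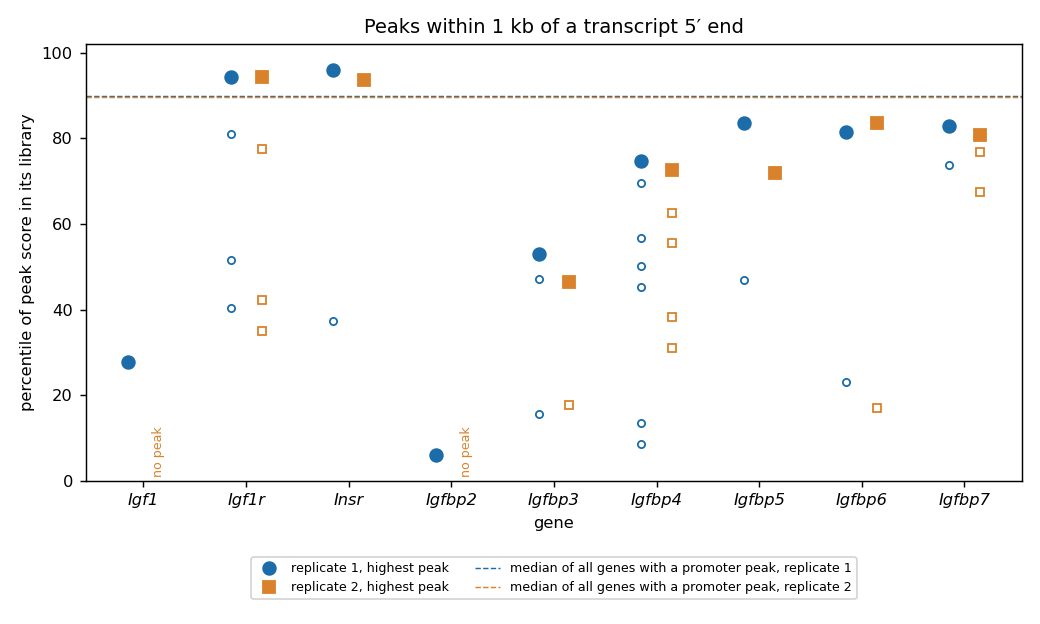
Each point is a promoter peak of an IGF system gene (x axis), with its score percentile in its own library on the y axis, and filled points mark the highest peak of the gene. Igf1r and Insr lay above the dashed medians of all genes with a promoter peak (89.9 and 89.7), and Igf1 and Igfbp2 had no promoter peak in replicate 2.

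Igf1, the ligand, lies on the plus strand at chr10:87858265-87937042 (mm10) with 8 annotated transcripts, and its annotated starts had a weak peak or none. Replicate 1 had a single promoter peak, in an untranslated region at chr10:87860220-87860332, with a score of 0.757 and a percentile of 27.9, and replicate 2 had none. The starts were not wholly without signal in replicate 2. Of the 5065 bases within 1 kb of the Igf1 starts, 307 in replicate 1 and 121 in replicate 2 reached a false discovery rate of 0.05, with lowest values of 0.000117 and 0.00991. The larger peak list of replicate 2 held a peak near another of the starts, at chr10:87859019-87859148 with a score of 0.528. The most accessible site of the Igf1 window lay outside the annotated promoter, at -3.63 kb from the outermost start, in an intron of the neighbouring gene model Igf1os. It scored 2.58 in replicate 1 (percentile 73.9) and 1.83 in replicate 2 (percentile 62.4). Its reference sequence is printed to show where both libraries had footprints; here and in all sequences that follow, capitals mark bases inside footprints of both libraries.
Igf1 upstream site, chr10:87854561-87854700, plus strand: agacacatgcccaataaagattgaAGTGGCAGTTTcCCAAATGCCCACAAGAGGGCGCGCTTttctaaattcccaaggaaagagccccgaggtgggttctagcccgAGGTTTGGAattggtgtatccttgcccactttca
A stretch of this sequence in the shared footprint, GAGGGCGC at position 51 from the 5′ end of the printed sequence, matches GNGGGCGC, the core of the CTCF motif. CTCF is a zinc finger protein that marks chromatin loop ends. Away from gene starts, that motif was held by 5 of the 49 other regions of the IGF system genes open in both libraries (10.2%), against 5.38% of all peaks away from gene starts in replicate 1 and 5.37% in replicate 2. Among promoter regions it was held by 1 of 18 (5.56%), against 11.5% and 12.0% of all promoter peaks. Motifs were counted in the central 151 bases of regions and peaks. The CTCF core was added to the motif list after the printed sequences had been seen. The sites printed here and below for Igf1, Igfbp3 and Igfbp7 are among the 5 other regions that held it. Its share in these regions therefore cannot be read as an excess over all peaks. All sequences are those of the C57BL/6J reference, and the CAST/EiJ allele was not examined.

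Inside the Igf1 gene the open sites were few and weak. An intronic peak 69.1 kb from the start had percentiles of 46.2 and 24.0 in replicates 1 and 2, and another at 43.8 kb had 17.5 and 20.6. Igf1 had 7 other peaks in replicate 1 and 4 in replicate 2, which is 3.92 and 2.24 per 100 kb of window, against medians of 5.27 and 4.29 over all protein-coding genes. None of them lay at the start of another gene. The 300 bases around the RefSeq start of Igf1, chr10:87860861-87861160, held 6 CpG, against a median of 7 over 32851 RefSeq promoters. None of the GENCODE starts of Igf1 lies in that window.

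Igf1r, the receptor for IGF1, had its strongest promoter peak upstream of its start and weaker peaks nearer to it. It lies on the plus strand at chr7:67952827-68233668 and spans 280.842 kb. Its highest promoter peak, chr7:67951661-67951900, was centred at -1.05 kb and scored 8.73 in replicate 1 (percentile 94.2) and 9.76 in replicate 2 (percentile 94.3). The next, chr7:67952241-67952440 at -0.487 kb, had percentiles of 81.0 and 77.5. The peak closest to the outermost GENCODE start, chr7:67952918-67953199 at 0.232 kb, had only 40.3 and 42.2. Another weak peak of its promoter set sat 258 kb into the gene, in a noncoding exon by the start of an inner transcript, with percentiles of 51.5 and 35.0. The upstream promoter held 5 footprints in replicate 1 and 6 in replicate 2, and its sequence is shown because over both libraries together it held the most footprints of the gene's peaks.
Igf1r upstream promoter, chr7:67951661-67951900, plus strand: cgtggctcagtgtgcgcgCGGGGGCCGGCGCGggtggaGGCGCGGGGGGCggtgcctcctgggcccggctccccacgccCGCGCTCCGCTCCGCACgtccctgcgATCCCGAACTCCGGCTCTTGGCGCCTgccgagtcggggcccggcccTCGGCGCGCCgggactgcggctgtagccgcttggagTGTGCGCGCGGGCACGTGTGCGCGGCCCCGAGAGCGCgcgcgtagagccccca
This sequence is 80.0% G and C. CACGTG, the palindromic E-box bound by basic helix-loop-helix proteins, stands inside a shared footprint at position 200. It lies outside the central 151 bases, where 0 of the 18 promoter regions open in both libraries held it, against 5.35% and 5.74% of all promoter peaks. The RefSeq start differs from the GENCODE start used for these distances. Its window of 300 bases, chr7:67952007-67952306, lies upstream of the GENCODE start and overlaps the peak at -0.487 kb. That window held 48 CpG, the most among the IGF system genes matched.

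The most accessible site of Igf1r was not at its start but in an intron, 176 kb downstream. At chr7:68129121-68129320 in replicate 1 it scored 16.2 (percentile 99.1), and at chr7:68129101-68129280 in replicate 2 it scored 16.6 (percentile 98.5). Both values were above those of every Igf1r promoter peak in the same library. A second intronic peak stood beside it, 177 kb from the start, with percentiles of 93.9 and 92.7, and a further one at 9.24 kb had 89.9 and 84.6. The bases of the strongest site that both libraries called are shown because it ranked above every promoter peak of the 9 genes.
Igf1r intronic site, chr7:68129121-68129280, plus strand: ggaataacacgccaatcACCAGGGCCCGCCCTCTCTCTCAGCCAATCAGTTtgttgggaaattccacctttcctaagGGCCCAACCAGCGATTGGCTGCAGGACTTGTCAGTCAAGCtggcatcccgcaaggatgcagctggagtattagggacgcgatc
Its shared footprints cover 74 of 160 bases. CCCGCCC at position 25, inside a shared footprint, is the other-strand form of GGGCGGG, a motif of KLF and SP zinc finger factors. That motif was held by 5 of the 49 other regions away from gene starts (10.2%), against 4.78% and 4.86% of all such peaks. Among promoter regions it was held by 3 of 18 (16.7%), against 28.9% and 30.9% of all promoter peaks. The motif shares letters with the CTCF core, so 1 stretch can match both.

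Igf1r had 27 other peaks in replicate 1 and 17 in replicate 2, more than 98.2% and 93.1% of all protein-coding genes. Its window is long, and per 100 kb the counts came to 7.09 and 4.46, above those of 62.9% and 51.5% of genes. Of these peaks 25 and 15 lay away from any gene start, while the remaining ones lay by the start of Pgpep1l at the far end of the window. The other peaks of Igf1r held 63 footprints in replicate 1 and 40 in replicate 2.

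Insr, the insulin receptor, lies on the minus strand at chr8:3122061-3279617 and had the highest promoter percentile of the 9 genes in replicate 1. The peak over its start, chr8:3279521-3279720 in replicate 1 and chr8:3279501-3279720 in replicate 2, scored 10.2 (percentile 95.9) and 9.10 (percentile 93.6). A second promoter peak, at -0.854 kb, was called in replicate 1 alone with a percentile of 37.4. The bases upstream of the annotated start are shown because both libraries had footprints there.
Insr promoter, chr8:3279618-3279720, minus strand: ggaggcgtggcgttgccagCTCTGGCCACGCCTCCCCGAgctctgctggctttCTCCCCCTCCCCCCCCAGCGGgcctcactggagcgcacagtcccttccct
The other peaks of Insr were few for its length: 8 in replicate 1 and 6 in replicate 2, or 3.11 and 2.33 per 100 kb, against 5.27 and 4.29 for the median gene. Of its 5 other regions open in both libraries, 4 lay within introns between 58.4 and 70.2 kb from the start. The strongest of these had a score of 6.42 (percentile 90.4) in replicate 1 and 9.14 (percentile 93.6) in replicate 2, level with the promoter peak of replicate 2. It held 5 footprints in each library and is shown as the strongest site of the gene away from its start.
Insr intronic site, chr8:3221061-3221260, minus strand: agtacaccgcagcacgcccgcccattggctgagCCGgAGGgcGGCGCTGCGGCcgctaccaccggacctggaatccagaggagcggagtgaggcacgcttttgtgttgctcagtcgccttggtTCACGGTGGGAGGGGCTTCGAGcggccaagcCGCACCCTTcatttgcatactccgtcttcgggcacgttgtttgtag
GGGCGGG occurs in it on the other strand, at position 17, outside the shared footprints. Its neighbours at 63.8 kb and 59.0 kb had percentiles of 62.2 and 45.6 in replicate 1, and of 77.2 and 51.7 in replicate 2. All 5 other regions of Insr open in both libraries ranked higher in replicate 2, whereas the peak over its start ranked higher in replicate 1. Of the 84 regions of the IGF system genes open in both libraries, 61 ranked higher in replicate 1.

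**Figure D2:**
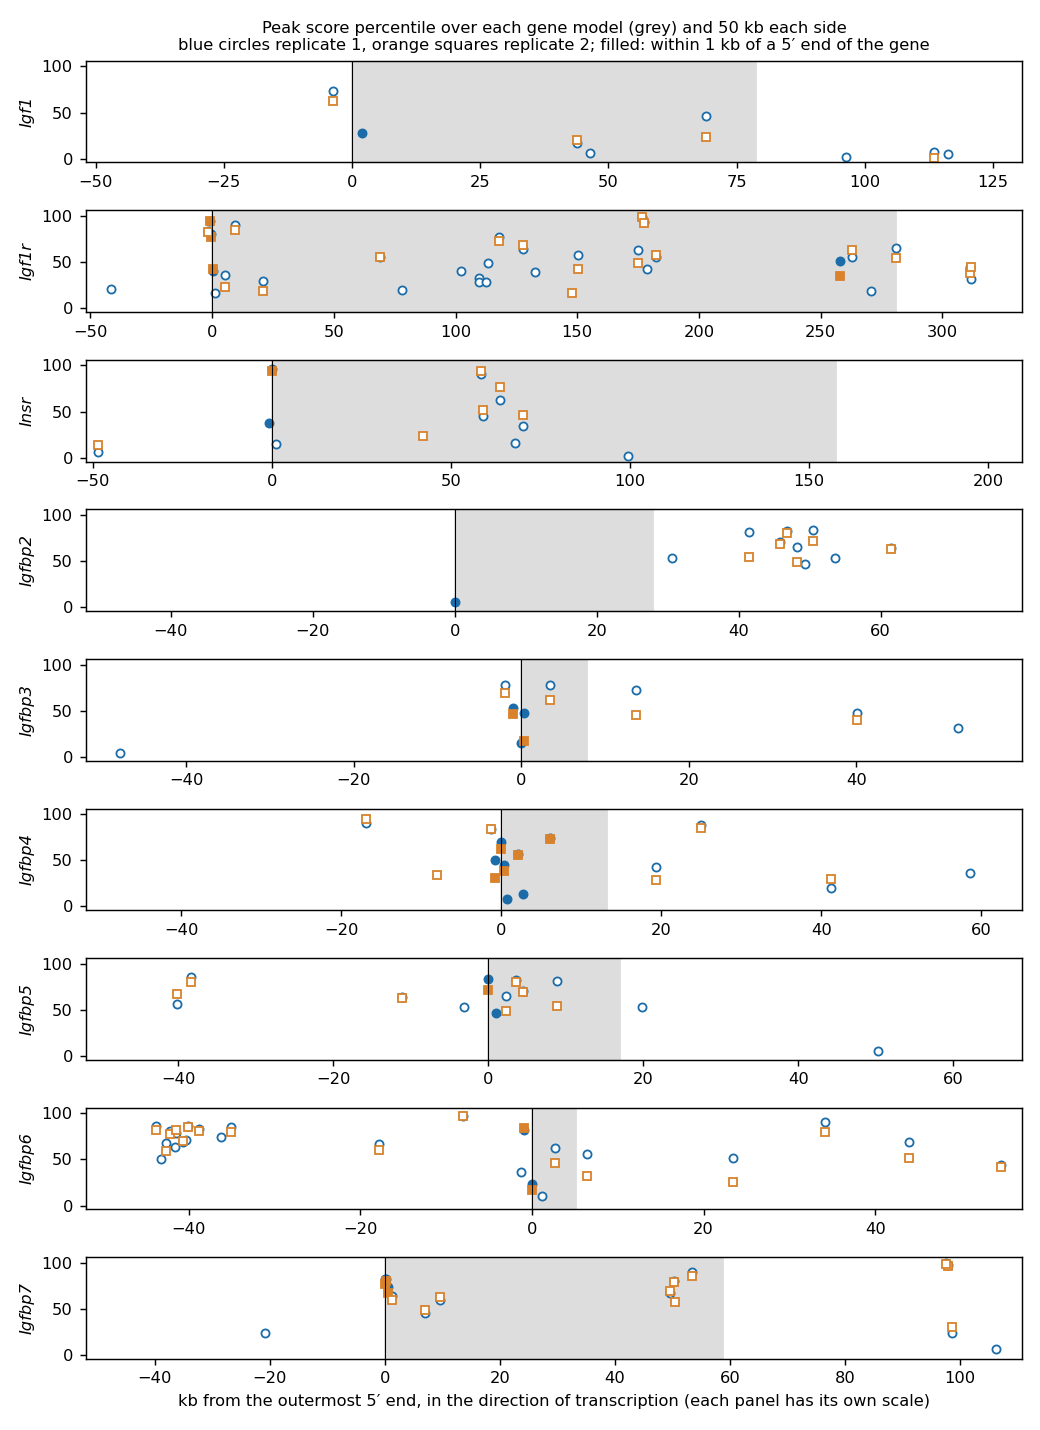
Score percentile of each peak (y axis) by its distance in kb from the outermost 5′ end in the direction of transcription (x axis), with 1 panel per gene, grey for the gene model and filled symbols for promoter peaks. Igf1r had its highest site in an intron (99.1 and 98.5), Igfbp2 had no other peak inside its own gene model, and the peaks of Igfbp6 gathered upstream of it.

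Igfbp2 and Igfbp5 are neighbours on chromosome 1 that face each other's 3′ ends, and their windows overlapped. Igfbp2, a carrier of both IGFs, lies at chr1:72824503-72852474 on the plus strand and had 1 weak promoter peak in replicate 1, with a score of 0.438 and a percentile of 5.96. Replicate 2 had none in its smaller list and 1 in its larger list, with a score of 0.418. At its starts, 706 of 4821 bases in replicate 1 and 188 in replicate 2 reached a false discovery rate of 0.05. The 300 bases around its pair of RefSeq starts held 18 and 14 CpG, above the median of 7. Its promoter percentile was the lowest of the 9 genes in replicate 1, and that peak held 0 footprints. None of the 9 other peaks of its window in replicate 1, and none of the 6 in replicate 2, lay inside the Igfbp2 gene. All of them also fell in the Igfbp5 window, where the nearest to Igfbp5 counted as its promoter peaks.

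Igfbp5, which binds IGFs in the pericellular matrix, lies on the minus strand at chr1:72857932-72874884. Its start was open in both libraries, with a peak at chr1:72874841-72875020 that scored 4.15 in replicate 1 (percentile 83.6) and 2.43 in replicate 2 (percentile 71.8). A second promoter peak, in a coding exon, was called in replicate 1 alone with a percentile of 46.8. Among the other peaks, an intronic one at 3.62 kb had percentiles of 82.8 and 80.4, and one at 4.51 kb had 70.6 and 69.1. The site at 4.51 kb carried 5 footprints in replicate 1 and 4 in replicate 2. A peak between genes at -38.4 kb was higher, with percentiles of 85.3 and 80.5. The promoter and the far upstream site are printed together, since they were the strongest shared promoter and other site of this gene.
Igfbp5 promoter, chr1:72874885-72875020, minus strand: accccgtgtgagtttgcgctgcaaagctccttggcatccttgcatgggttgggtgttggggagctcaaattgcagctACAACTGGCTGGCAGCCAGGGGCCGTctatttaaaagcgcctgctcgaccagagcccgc
Igfbp5 far upstream site, chr1:72913181-72913380, minus strand: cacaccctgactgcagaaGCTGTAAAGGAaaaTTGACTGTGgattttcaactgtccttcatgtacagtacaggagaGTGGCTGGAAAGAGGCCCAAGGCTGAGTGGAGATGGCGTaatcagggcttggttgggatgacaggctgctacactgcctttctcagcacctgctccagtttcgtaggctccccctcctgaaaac
The promoter run has 1 stretch of capitals, of 26 bases, and the upstream site has 59 capital bases of 200. No searched motif stood inside a shared footprint of either. Igfbp5 had 10 other peaks in replicate 1 and 7 in replicate 2, or 8.55 and 5.99 per 100 kb, against 5.27 and 4.29 for the median gene.

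Igfbp3 encodes the main IGF carrier of the blood and lies on the minus strand at chr11:7206086-7213923. Its promoter peaks ranked low in both libraries. The highest, chr11:7214841-7215040 at -1.02 kb, had a score of 1.31 (percentile 53.0) in replicate 1 and 1.25 (percentile 46.5) in replicate 2. A coding-exon peak 0.303 kb into the gene had percentiles of 47.0 and 17.8, and another, just upstream of the start, was called in replicate 1 alone at 15.5. Beside the promoter, 2 sites ranked higher than its highest peak in both libraries. The peak at -1.95 kb had percentiles of 78.1 and 68.8, and the intronic peak at 3.39 kb had 78.2 and 62.0. A peak in an intron of Igfbp1, the adjacent binding protein gene, had 72.9 and 45.7, above the promoter in replicate 1 but not in replicate 2. The site at -1.95 kb is shown for its single shared footprint.
Igfbp3 upstream site, chr11:7215781-7215960, minus strand: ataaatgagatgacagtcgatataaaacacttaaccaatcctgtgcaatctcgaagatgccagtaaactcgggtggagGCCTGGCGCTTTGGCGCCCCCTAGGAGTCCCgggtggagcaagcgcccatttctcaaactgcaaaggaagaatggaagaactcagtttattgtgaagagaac
Inside this footprint, GCGCCCCC at position 92 is the other-strand form of the CTCF core GNGGGCGC. CGCCCCCT at position 93 matches AGGNGGCG, a second spelling of the CTCF motif, on the same strand, and the 2 matches overlap. AGGNGGCG was held by 3 of the 49 other regions away from gene starts (6.12%), against 6.58% and 6.70% of all such peaks, and by 3 of 18 promoter regions (16.7%), against 15.04% and 15.63% of all promoter peaks.

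Igfbp4, an inhibitory binding protein that the protease PAPP-A cleaves, lies on the plus strand at chr11:99041244-99054392 with 6 transcripts. It had the most promoter peaks, 7 in replicate 1 and 5 in replicate 2, spread over several transcript starts. The highest stood 6.03 kb into the gene, at the start of an inner transcript, with a score of 2.67 (percentile 74.7) in replicate 1 and 2.51 (percentile 72.6) in replicate 2. The peak over the outermost start had percentiles of 69.6 and 62.4. The inner peak is shown as the strongest promoter site of the gene, followed by a site at -1.29 kb that ranked above all of its promoter peaks, at 84.3 and 83.4.
Igfbp4 inner promoter, chr11:99047161-99047310, plus strand: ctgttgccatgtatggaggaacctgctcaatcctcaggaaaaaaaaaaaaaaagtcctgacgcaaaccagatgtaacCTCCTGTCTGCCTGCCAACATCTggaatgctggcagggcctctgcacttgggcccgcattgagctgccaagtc
Igfbp4 upstream site, chr11:99039861-99040020, plus strand: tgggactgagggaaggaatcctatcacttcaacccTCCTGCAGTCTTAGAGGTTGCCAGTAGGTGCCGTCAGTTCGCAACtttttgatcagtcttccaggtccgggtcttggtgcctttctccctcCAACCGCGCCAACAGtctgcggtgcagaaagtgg
TGCCAA at position 90 of the inner promoter, inside its shared footprint, is the other-strand form of TTGGCA, a half-site of the nuclear factor I (NFI) motif. TTGGCA was held by 3 of 18 promoter regions (16.7%), against 7.30% and 7.12% of all promoter peaks, and by 6 of the 49 other regions away from gene starts (12.2%), against 16.3% and 16.5% of all such peaks. The highest peaks of the Igfbp4 window belonged to its neighbours. A peak by the start of Top2a, a topoisomerase of dividing cells, had percentiles of 89.9 and 95.1 and held 7 and 4 footprints. Another, in an untranslated region of Tns4, had 87.9 and 84.8.

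Igfbp6, a binding protein with a preference for IGF2, is the shortest gene of the set at 5.15 kb and lies on the plus strand at chr15:102144362-102149511. Its highest promoter peak was centred at -0.922 kb, not over the start. It scored 3.69 (percentile 81.5) in replicate 1 and 4.09 (percentile 83.6) in replicate 2. The peak over the start itself had percentiles of only 23.0 and 17.1. The upstream peak is shown for the motifs in its footprints.
Igfbp6 upstream promoter, chr15:102143341-102143520, plus strand: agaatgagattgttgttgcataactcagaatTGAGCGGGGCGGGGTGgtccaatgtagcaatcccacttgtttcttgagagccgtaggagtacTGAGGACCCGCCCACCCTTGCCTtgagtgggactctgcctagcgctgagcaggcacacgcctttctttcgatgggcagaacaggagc
GGGCGGG stands at position 38 and, on the other strand, at position 100, both inside shared footprints. An intronic peak of the gene at 2.74 kb had percentiles of 62.8 and 46.1. The window of Igfbp6 held 23 other peaks in replicate 1 and 17 in replicate 2, or 21.9 and 16.2 per 100 kb. That density was above that of 98.5% and 97.2% of all protein-coding genes, and away from the starts of other genes 8 and 5 of these peaks remained. The others stood by the starts of Tns2, Spryd3, Soat2 and Csad. The highest, at the start of Spryd3 at -8.07 kb, had percentiles of 97.2 and 97.4. Next came an intronic peak of Tns2 at -40.1 kb, with 86.0 and 85.3, and a peak of Csad at 34.1 kb, with 90.1 and 79.7. A region of Tns2 at -43.8 kb held the most footprints, 8 in replicate 1 and 10 in replicate 2.

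Igfbp7 encodes a secreted protein of vessel walls that binds IGFs weakly, and lies on the minus strand at chr5:77349240-77408041. It had 3 promoter peaks in each library, all centred within 0.572 kb of its start, of which only chr5:77407961-77408160 covered the start. The 3 peaks had percentiles of 82.8, 82.3 and 73.7 in replicate 1, and of 80.7, 76.8 and 67.4 in replicate 2. Igfbp7 also had 3 intronic regions open in both libraries near its 3′ end, between 49.5 and 53.3 kb from the start. The strongest of these, chr5:77354601-77354800, scored 6.38 (percentile 90.3) in replicate 1 and 4.76 (percentile 86.1) in replicate 2. It was thus above the promoter peaks of Igfbp7 in both libraries. The sequence is given because both libraries placed 3 footprints in it.
Igfbp7 intronic site, chr5:77354601-77354800, minus strand: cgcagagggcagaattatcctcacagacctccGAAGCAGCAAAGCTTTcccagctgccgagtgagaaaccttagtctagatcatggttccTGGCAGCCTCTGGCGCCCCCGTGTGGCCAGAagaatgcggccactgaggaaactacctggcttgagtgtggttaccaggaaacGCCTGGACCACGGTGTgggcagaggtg
GCGCCCCC at position 103, in a shared footprint, is again the other-strand form of the CTCF core. Still higher percentiles, 99.4 and 98.5 and, beside them, 97.9 and 97.0, belonged to peaks 97.6 and 97.9 kb away at the start shared by Noa1 and Polr2b, which encodes an RNA polymerase II subunit. Igfbp7 had 11 other peaks in replicate 1 and 10 in replicate 2.

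**Figure D3:**
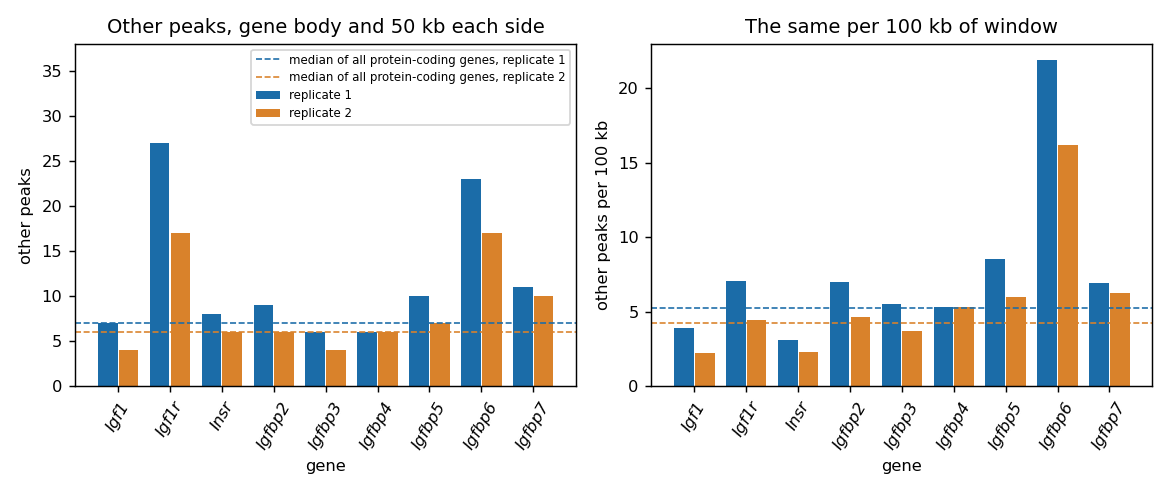
Number of other peaks (left y axis) and the same per 100 kb of window (right y axis) for each IGF system gene (x axis) in replicates 1 and 2, with dashed lines at the median of all protein-coding genes. Igf1r and Igfbp6 had the highest counts (27 and 23 in replicate 1), and Igfbp6 alone stood far above the medians per 100 kb (21.9 and 16.2).

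Seen together, all 9 genes had at least 1 other peak in both libraries, against 86.6% and 85.2% of all protein-coding genes. The median number was 9 in replicate 1 and 6 in replicate 2, against 7 and 6 for all genes, and per 100 kb 6.93 and 4.69, against 5.27 and 4.29. In these medians a peak in the windows of both Igfbp2 and Igfbp5 counted for each gene. The count of 9 in replicate 1 and the 4.69 in replicate 2 were the values of Igfbp2, whose other peaks all fell in the Igfbp5 window too. With peaks that fell in the windows of both Igfbp2 and Igfbp5 counted once, the 9 genes held 25 promoter regions, 18 of them open in both libraries, and 100 other regions, 66 of them open in both. Of the other regions, 64 lay in introns, 24 between genes, 5 in coding exons, 5 in untranslated regions and 2 in noncoding exons. The 84 regions open in both libraries had median percentiles of 67.5 in replicate 1 and 62.7 in replicate 2, and the same region differed by a median of 5.38 percentile points between them, at most by 29.3. Regions of 1 library alone were lower, with medians of 27.9 for the 37 of replicate 1 and 28.9 for the 4 of replicate 2.

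Footprints were about as dense in the peaks of these genes as elsewhere. Promoter peaks of the 9 genes held 12.2 footprints per kb in replicate 1 and 12.5 in replicate 2. Summed over all protein-coding genes, with a peak counted once for each gene it was assigned to, promoter peaks held 12.6 and 13.4. The other peaks of the 9 genes held 14.3 and 15.4 per kb, against 13.7 and 13.5 summed in the same way. All peaks of a library, each counted once, held 13.0 and 12.6. Replicate 1 had 307 distinct footprints in these peaks and replicate 2 had 244, and 166 of those in replicate 1 overlapped a footprint of replicate 2. The footprint lists hold intervals with 1 constant threshold and no value of their own, so footprints could be counted but not ranked.

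The DNA of the regions open in both libraries was slightly richer in G and C than that of all peaks of its class, with medians of 66.6% against 63.6% for promoter regions and 53.6% against 52.3% for other regions away from gene starts. The regions of these genes had to be open in both libraries, whereas all peaks of a library include those called in it alone. Whether this moved the G and C content or the motif shares, here and above, was not tested. CCGGAAG, the motif of ETS factors, was in 0 of 18 promoter regions of these genes, against 7.98% and 9.04% of all promoter peaks. TTGCNNAA, bound by C/EBP factors, was in 5 of 49 other regions away from gene starts (10.2%), against 8.75% and 9.05% of all such peaks. TGANTCA, bound by AP-1, was in 4 of 49 (8.16%), against 6.67% and 6.73%. TCAAGTG, bound by NKX2-1, the lung epithelial regulator, was in 0 of 49, against 2.79% and 2.96%, and AGATAAG, bound by GATA factors, was in 0 of 49, against 1.74% and 1.87%. TTCNNNGAA, bound by STAT factors, was in 1 of 49 (2.04%), against 4.86% and 4.87%, and TGTTTAC, bound by FOX factors, in 0 of 49, against 3.15% and 3.39%. Among promoter regions TGTTTAC was in 2 of 18 (11.1%), against 1.54% and 1.51% of all promoter peaks. The palindromic ACANNNTGT of steroid receptors was in 4 of 49 (8.16%), against 5.37% and 5.70%, and in 2 of 18 promoter regions (11.1%), against 2.00% and 2.02%. The remaining motifs were held by at most 3 of the 49. TGTGGTT of RUNX was in 3 (6.12%), against 3.60% and 3.81%, and the TATA box TATAAA in 3 (6.12%), against 4.25% in each library. GGAATGT of TEAD was in 2 (4.08%), against 3.77% in each, and the E-box in 2 (4.08%), against 3.27% and 3.48%. GCATGCGC of NRF1 was in 1 (2.04%), against 0.630% and 0.648%. All motifs were searched on both strands, a match describes letters only, and with so few regions a difference of 1 or 2 matches moves each share by several percentage points.

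The wider pathway was read through 37 related genes, of which 34 had a promoter peak in replicate 1 and 31 in replicate 2, against 66.6% and 64.1% of all protein-coding genes. Their highest promoter peaks had median percentiles of 86.2 and 88.6, against 89.9 and 89.7 for all genes with a promoter peak. Genes that act inside the cell were open throughout. All 14 receptor adaptors and kinases had a promoter peak in both libraries, with median percentiles of 94.2 and 95.7, and the highest were Gsk3b (98.3 and 99.7), a kinase that AKT inhibits, and Grb2 (98.9 and 97.7), an adaptor of receptor tyrosine kinases. Both FOXO transcription factor genes were open as well, Foxo3 at 97.8 and 99.1 and Foxo1 at 92.3 and 88.6. In the growth hormone branch all 5 genes were open, led by Jak2 (94.9 and 93.8), the kinase of the growth hormone receptor, and Socs2 (95.2 and 93.3), its feedback inhibitor.

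Genes of the other roles had lower percentiles or no peak. Among the other ligands, Ins1 and Ins2, the insulin genes, had no promoter peak in either library, and Igf2, the fetal growth factor, had a peak in replicate 1 alone with a percentile of 18.5. Of the remaining receptors, Igf2r, which clears IGF2, had 76.6 and 74.8, and Insrr, an orphan relative of Insr, had 59.7 and 35.0. Igfbp1, which is expressed mainly in liver, had no promoter peak, while Igfbpl1 had 56.4 and 23.3 and Igfals, which encodes a partner of IGF and IGFBP3 in the blood, had 45.1 and 40.7. Of 5 genes for proteases of the binding proteins and their inhibitors, all had a promoter peak in replicate 1 and 3 in replicate 2. The shares of all protein-coding genes were 66.6% and 64.1%. Htra1 (80.3 and 69.2) and Stc2 (58.1 and 52.1) were highest. Pappa, the gene of PAPP-A, and Pappa2 had weak peaks in replicate 1 alone, with percentiles of 9.59 and 5.15. All 3 genes of the IGF2 mRNA-binding family had a promoter peak in both libraries, led by Igf2bp3 (66.9 and 70.7) and Igf2bp2 (67.6 and 57.3).

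**Figure D4:**
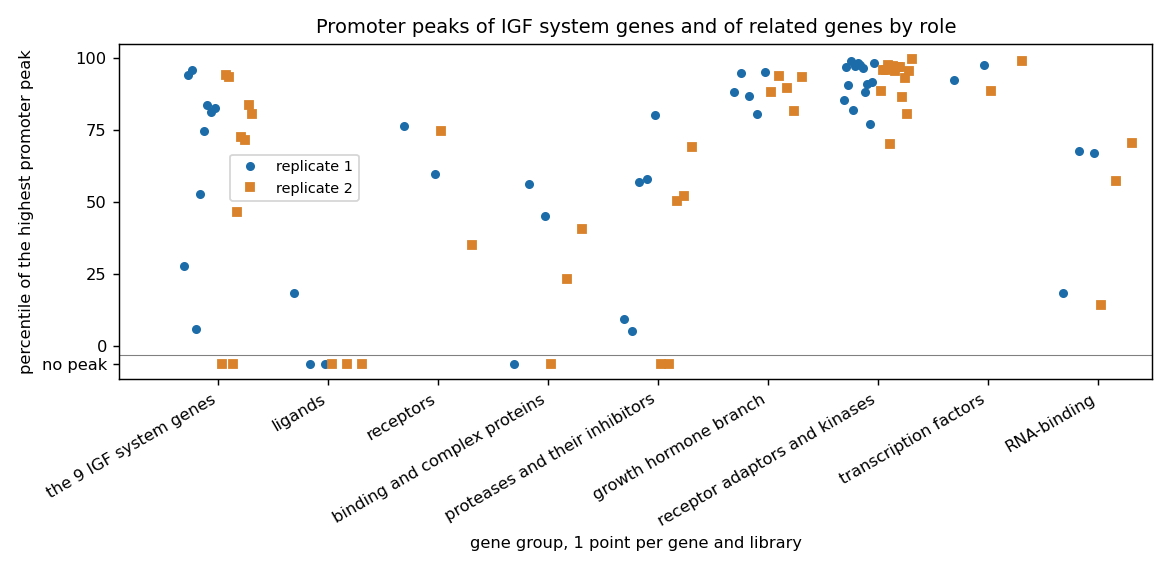
Percentile of the highest promoter peak (y axis) for the 9 IGF system genes and for 37 related genes grouped by role (x axis), 1 point per gene and library, with genes without a promoter peak under the line. The adaptors and kinases had medians of 94.2 and 95.7, and the other ligands lay at 18.5 or had no peak.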

How the data were processed

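DNase-seq of lung was deposited as peak lists, footprints and false discovery rate (FDR) runs for each library, on mm10 per the labels. The peak scores are signal values scaled by the authors in a way not stated, and were ranked only within their library. The authors' FDR files give p-values adjusted as FDR for runs of bases, and the deposited footprints carry a constant p-value threshold of 0.01. No source used here names the aligner, the peak caller or the depth. The smaller of the 2 deposited peak lists was used. Genes and 5′ ends came from GENCODE M21 on GRCm38, which shares mm10 coordinates, and promoter CpG counts from RefSeq windows of 250 bases before to 50 after the start (GRCm38, 8 of 9 genes matched). Regions merge overlapping peaks of both libraries. A footprint counted when it lay wholly inside a peak. Motifs were searched in the central 151 bases of regions and peaks, on both strands. The counting was checked on simulated data. Python 3.11.15, numpy 2.4.6, pandas 2.3.3 and matplotlib 3.10.9 were used. The genes, related genes, motifs and alternatives were chosen with earlier results of these data known. Peaks named were the highest promoter peaks, the 3 highest shared other peaks and the most footprinted peak of each gene, with further promoter peaks and an intronic peak of Igfbp6 added after their values were seen. Related genes named were the 2 highest of each role and those with no peak, with Pappa and Pappa2 added after their values were seen. No test was made, since there was 1 group.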

Additional observations from a re-analysis of the deposited data

How the results depend on the processing

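The number of IGF system genes with a promoter peak in both libraries, 7 of 9, stayed at 7 with windows of 500 or 2500 bp, with the outermost start alone and with protein-coding transcripts alone, and was 9 with the larger peak lists and 6 with the higher-scoring 50% of peaks. Replicates read singly gave 7 to 9. The count of other peaks of replicate 1 shared with replicate 2, 67, depended on the flank: 30 with no flank, 44 with 20 kb and 122 with 100 kb. It was 44 with the higher-scoring 50% of peaks, 49 without peaks at other genes' starts, 99 with the larger lists and 61 with reciprocal overlap of 50%, and single libraries gave 71 to 97. Footprints of replicate 1 overlapping one of replicate 2 numbered 166 in all peaks and 30 in promoter peaks alone, and single libraries held 244 to 307. The median percentile of the highest promoter peak, 81.1 ± 0.513 (SD, n = 2), was 60.1 when ranked among promoter peaks alone, and single libraries gave 80.7 to 81.5. The medians of the libraries rest on different genes, 9 in replicate 1 and 7 in replicate 2. The SD is therefore not a spread over the same genes, nor one between animals known to be separate. No paired analysis was possible because both libraries belong to 1 group. Depth is unknown, so a missing peak in replicate 2, which has fewer peaks, does not show a closed site, and whether depth moved with these counts was not tested.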
